A study of Mus musculus with 2 samples.

Results

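Complement genes were followed in mouse hearts after infarction, in single cells other than cardiomyocytes (interstitial cells). The 9 genes, taken by exact symbol, were C1qa, C1qb, C1qc, C1ra, C3, C4b, Cfb, Cfp and Serping1, of 15181 distinct genes in the 22 deposited tables. There were 2 libraries, 1 per genotype, of viable cells from adult cardiac ventricle sequenced with 10x Chromium 3′ chemistry. The control library came from PostnMCM hearts, in which a tamoxifen-inducible Cre is driven from the Postn locus and is active in activated fibroblasts. The other came from Yapfl/fl;Wwtr1fl/+;PostnMCM hearts, in which those cells can recombine Yap1 on both alleles and Wwtr1, the gene for TAZ, on 1. All mice also carried a Cre-dependent R26-eGFP reporter, had a myocardial infarction (MI) by ligation of the left anterior descending artery and ate chow with 0.4 g/kg tamoxifen. Hearts were taken 6 days after MI per the labels (the study's methods give another day), and the number of hearts behind each library was not given.

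Complement is a cascade of secreted proteins that tags cells and debris for removal. The classical pathway starts when C1q, built from chains A, B and C, binds a target and activates the proteases C1r and C1s, which cut C4 and C2. The alternative pathway runs on factor B and is stabilized by properdin. Both meet at C3, whose fragments mark surfaces and recruit leukocytes, and C1 inhibitor holds the first step in check. In the heart and other tissues macrophages are the main source of C1q and myeloid cells of properdin, while fibroblasts secrete C1r, C1s, C3, C4, factor B and C1 inhibitor.

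The values are the authors' deposited shares: for each library, the percent of a cluster's cells whose corrected count exceeded 0. A difference is the library labelled depleted minus control, in percentage points. With 1 library per genotype there is no replicate error and no test, and p-values, SD or SE are not given. A difference of at least 10 points is called higher or lower, as a rule of size only. The deposited tables give neither cells nor counts for a cluster in either library, so the depth behind a share is unknown. The smallest share above 0 that a subcluster table holds shows how finely shares can differ: it was 0.7% to 4.3% in the control library, but 10% in the library labelled depleted in subcluster 4, as large as the size limit.

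The targeted transcripts followed the labels only in part. Yap1 was found in 46.2% of control cells and 56.2% of cells of the other library in fibroblast subcluster 0, in 23.3% and 43.5% in subcluster 3, and in 30.4% and 47.6% in subcluster 5. Only in subcluster 4 was it lower, at 57.5% and 40%. Wwtr1 was at 81.4% and 90.6% in subcluster 0, 93.3% and 91.3% in subcluster 3, 80% and 60% in subcluster 4, and 100% and 85.7% in subcluster 5. So 4 of these 8 values were lower in the second library, both genes in subcluster 4 among them, and 4 were higher. A count near the 3′ end of a transcript checks recombination only where that end or the whole transcript is lost, so these shares do not show whether the alleles were recombined. The libraries are called by their labels throughout. In all 4 subclusters the matrix genes Col1a1, Col1a2, Col3a1 and Dcn were found in 100% of cells of both libraries.

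C1qb, C1qc and C1qa lie side by side on the minus strand of chromosome 4, at 136606009-136613511, 136616466-136620376 and 136623223-136626161 in GRCm39, within 20153 bases. Chromosome 17 holds C4b (34947354-34962912), Cfb (35074852-35081559) and C3 (57510964-57535155), all on the minus strand. C2, the related protease of the classical pathway, ends 18 bases before the start of Cfb. C1ra is on the plus strand of chromosome 6 (124489364-124500402), Serping1 on the minus strand of chromosome 2 (84595705-84620873) and Cfp on the minus strand of chromosome X (20791688-20797794). C4b has the near-identical copy C4a 65156 bases away and C1ra has C1rb 46850 bases away, so the split of reads within each pair is uncertain.

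RefSeq windows from 250 bases before to 50 after the start were held for 5 of the 9 genes (C1qb, C1qc, C1ra, C3 and Cfp), in the older build GRCm38.p6. These windows were searched on both strands for the core of PU.1, the myeloid master factor (GAGGAA), and the core of TEAD, through which YAP and TAZ act (GGAATG). Of 32851 windows of this length, 28.3% held the first and 14.7% the second. The neighbours C1qb and C1qc are shown because they share a locus and the C1q molecule and were lower together in 3 of 4 subclusters, and C1ra because it was the only 1 of the 5 with a TEAD core. Matches on either strand are in capitals, those on the opposite strand as the reverse complement.

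C1qb (chr4:136886151-136886450, minus strand): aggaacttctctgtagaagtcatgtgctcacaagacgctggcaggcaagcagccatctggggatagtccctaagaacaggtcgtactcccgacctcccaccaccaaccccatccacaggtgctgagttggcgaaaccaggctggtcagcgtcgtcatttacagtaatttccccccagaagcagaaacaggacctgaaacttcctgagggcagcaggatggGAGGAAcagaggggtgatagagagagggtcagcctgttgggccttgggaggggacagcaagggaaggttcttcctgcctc
C1qc (chr4:136892865-136893164, minus strand): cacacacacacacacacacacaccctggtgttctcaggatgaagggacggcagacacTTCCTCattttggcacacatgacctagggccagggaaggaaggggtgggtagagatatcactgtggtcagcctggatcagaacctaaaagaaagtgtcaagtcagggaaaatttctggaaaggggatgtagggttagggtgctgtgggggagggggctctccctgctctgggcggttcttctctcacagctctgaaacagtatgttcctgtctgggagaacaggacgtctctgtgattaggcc
C1ra (chr6:124512371-124512670, plus strand): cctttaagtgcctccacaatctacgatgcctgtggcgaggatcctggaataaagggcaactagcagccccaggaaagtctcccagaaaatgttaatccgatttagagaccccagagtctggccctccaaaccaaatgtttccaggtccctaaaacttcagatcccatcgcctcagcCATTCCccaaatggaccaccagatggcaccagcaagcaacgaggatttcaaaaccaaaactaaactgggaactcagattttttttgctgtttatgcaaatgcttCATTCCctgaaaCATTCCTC

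Counting the first base after the upstream 250 as 0, the PU.1 core began at -30 in C1qb and, on the opposite strand, at -193 in C1qc. Cfp held it at 6 and 22. C1ra held the TEAD core at -74, 30 and 42 and the PU.1 core at 44, and the last TEAD core shares letters with the PU.1 core. C3 held neither. A match is only a run of letters in a window and no evidence of binding.

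In each of the 4 fibroblast subclusters C1qb, a chain of C1q, was found in fewer cells of the library labelled depleted, at 10% to 47.6% against 77.5% to 82.8% of control cells. Cfb, the factor B gene, was higher in subclusters 3 and 4 and lower in subcluster 5, and C3 was past the size limit only in subcluster 5, where it was lower. Serping1 passed it in none. The table of fibroblast cluster 5, from which the subclusters were drawn, lists no C1q chain, so C1qb there was under 25% of cells in both libraries or under 0.25 in log2 fold change. Subclusters were normalized apart, and shares of leukocyte genes were far higher in them: S100a9, a neutrophil gene, was in 49.7% of control cells of cluster 5 and in 85% to 96.7% of control cells of the 4 subclusters. Whether the C1q shares depend on that step was not tested. In all, 4 of the 36 values of the 9 genes were higher and 14 were lower. Without subcluster 4, 2 were higher. The study describes subcluster 0 by IGF binding proteins and the epicardial marker Dmkn, 3 as proliferating myofibroblasts, 4 by matrifibrocyte markers and 5 as secretory myofibroblasts. By its account both genotypes filled subclusters 3 and 5, while 0 and 4 came mostly from control hearts, so the shares of the library labelled depleted in 0 and 4 rest on the minority of cells there. Subcluster 1, which came mostly from the hearts labelled depleted, and subcluster 2, mostly control, were not analysed here, so the 4 subclusters do not stand for all fibroblasts of either library.

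These counts are to be read beside all genes found in at least 10% of cells on average. In subcluster 0, 14.7% of 10678 such genes were higher and 12.9% lower, against 0 and 3 of the 9 complement genes. In subcluster 3 it was 17.4% and 21.9% of 10891 genes, against 2 and 2. Subcluster 4 had 31.7% and 22.9% of 11006 genes, against 2 and 3. In subcluster 5, 28.1% and 19.6% of 10344 genes were higher and lower, against 0 and 6 complement genes. The median difference of the 9 genes was -2.4, -1.1, -5.0 and -13.3 points in subclusters 0, 3, 4 and 5, against 0.1, -0.2, 0.0 and 1.3 over all such genes.

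**Figure D1:**
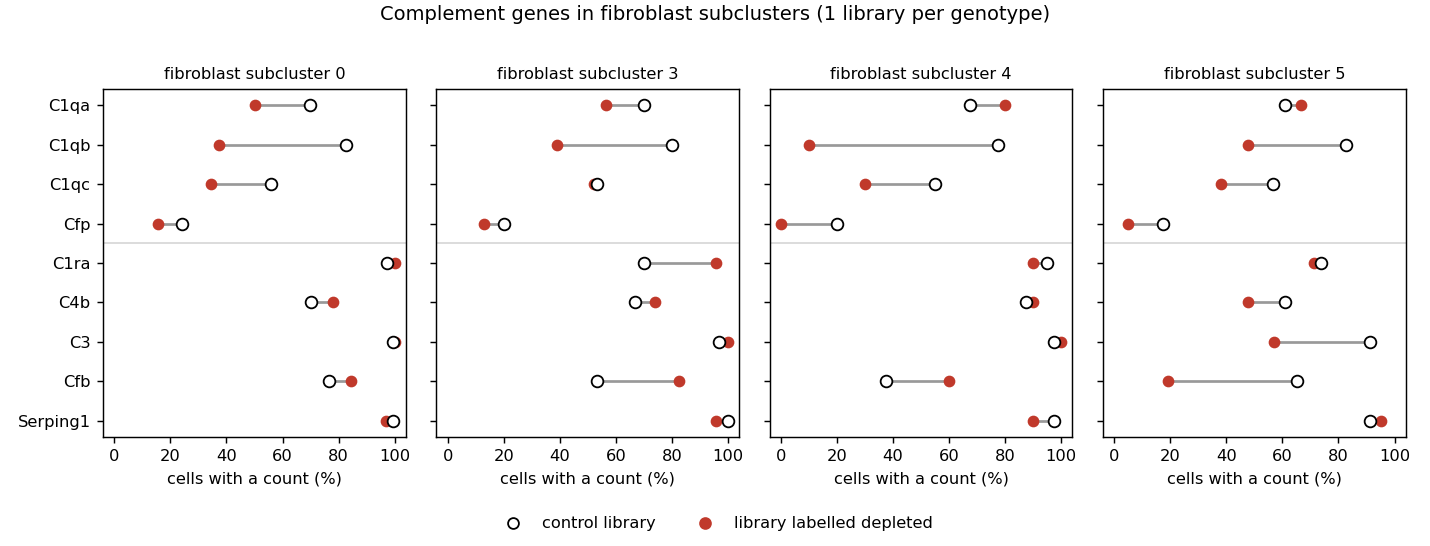
Share of cells with a count (%, x axis) of the 9 complement genes in fibroblast subclusters 0, 3, 4 and 5, in the control library (open) and the library labelled depleted (filled), 1 library each. C1qb lies far to the left in the filled points of every panel, and C3 and Cfb do so only in subcluster 5.

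C1qb encodes the B chain of C1q. It was found in 82.8% of control cells and 37.5% of cells of the library labelled depleted in subcluster 0, a difference of -45.3 points. In subcluster 3 it was at 80% and 39.1%, in subcluster 4 at 77.5% and 10%, and in subcluster 5 at 82.6% and 47.6%. The control shares lay within 77.5% to 82.8%, and every share of the other library was below them. In subcluster 4, no other of the 11006 genes had a difference as low as that of C1qb. In subcluster 0, 5 of 10678 genes were as low, C1qb included, in subcluster 3 it was 26 of 10891, and in subcluster 5, 86 of 10344. Control shares in cells of another lineage can be set beside these, on the scale of the clusters. C1qb itself was at 68.4% in natural killer cell cluster 14 and at 33.3% in cluster 6, and in T cell cluster 10, C1qa was listed at 36.4% and C1qc at 27.3% of control cells. The depth of these cells is unknown, the smallest control share above 0 in the table of cluster 10 was 9.1%, and by the account of the study most of that cluster came from the other genotype. The part of free RNA in these shares was not tested.

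C1qc encodes the C chain. Its shares were 55.9% and 34.4% in subcluster 0, 55% and 30% in subcluster 4, and 56.5% and 38.1% in subcluster 5, differences of -21.5, -25.0 and -18.4 points. In subcluster 3 the libraries were nearly level, at 53.3% and 52.2%. So 3 of 4 subclusters were lower by the size limit, with control shares between 53.3% and 56.5%.

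C1qa, the A chain, did not follow the other chains everywhere. It was lower in subcluster 0, at 69.7% and 50%, and in subcluster 3, at 70% and 56.5%. In subcluster 4 it was higher, at 67.5% and 80%, and in subcluster 5 it was at 60.9% and 66.7%. Subcluster 4 thus held C1qb at 10% and C1qa at 80% of the same cells, while in control cells they were at 77.5% and 67.5%. The difference of 12.5 points in C1qa there is little more than the smallest share of 10% in that column.

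Cfp encodes properdin. It was found in few fibroblasts of either library, 17.4% to 24.1% in control and 0% to 15.6% in the other. The differences were -8.5, -7.0, -20.0 and -12.6 points in subclusters 0, 3, 4 and 5, lower in the last 2 by the size limit. Of all genes with a mean share of at least 10%, 16.4%, 29.9%, 9.93% and 14.6% were as low. The share of 0% in subcluster 4 is in a column whose smallest share above 0 was 10%. All 4 differences were below 0, but they share the same 2 libraries and are no repeats.

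Markers of other cell types differed between the libraries in these subclusters too. Of 15 macrophage and monocyte markers that include no complement gene, 7, 4, 5 and 5 were lower and 0, 2, 2 and 2 higher in subclusters 0, 3, 4 and 5, counting those of mean share of at least 10%. The sum of their shares was 695.3 in control and 496.8 in the library labelled depleted in subcluster 0, 599.9 and 538.9 in subcluster 3, 685.0 and 540.0 in subcluster 4, and 521.5 and 433.3 in subcluster 5. Over the 4 subclusters, 21 of the 52 values of mean share of at least 10% were lower and 6 higher. For the C1q chains it was 9 and 1 of 12 values. Among all genes of that mean share, 12.9% to 22.9% were lower and 14.7% to 31.7% higher by subcluster. The part of the macrophage markers in the C1q difference was not tested.

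The macrophage markers were not uniformly lower. Tyrobp, a signalling adaptor of myeloid receptors, was at 82.8% and 43.8% in subcluster 0, 83.3% and 26.1% in subcluster 3, 90% and 30% in subcluster 4, and 65.2% and 52.4% in subcluster 5. Lyz2, the lysozyme gene, was at 89% and 50%, 80% and 47.8%, 90% and 70%, and 82.6% and 47.6%. Csf1r, the receptor that macrophages need to survive, was at 60% and 50% in subcluster 0 but at 57.5% and 70% in subcluster 4 and 13% and 23.8% in subcluster 5. Adgre1, the gene of F4/80, was low throughout, at 16.7% to 22.5% of control cells and 4.8% to 21.7% of the others. Cd68 was at 21.7% and 0% in subcluster 5. Fcgr1 was at 10% and 0% in subcluster 4 but at 0% and 9.5% in subcluster 5. The 7 neutrophil markers were lower in 15 and higher in 1 of 21 values, with S100a9 at 91.7% and 53.1% in subcluster 0. Of the other lists, lymphocyte markers had 4 higher and 0 lower of 6 values and endothelial markers 4 and 3 of 9. The 4 lymphocyte values were Cd3d in subclusters 3, 4 and 5 and Cd3e in subcluster 4. Without the limits on size and mean share, 13 of 24 lymphocyte values were below 0 and 10 above. These lists are to be read beside all genes, of which 14.7% to 31.7% were higher and 12.9% to 22.9% lower by subcluster.

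**Figure D2:**
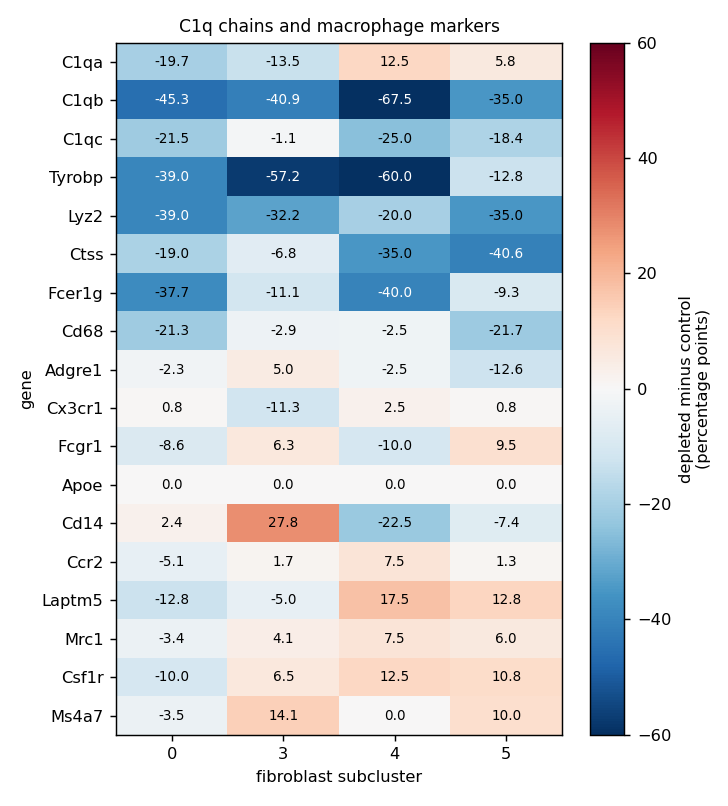
Difference in the share of cells with a count (library labelled depleted minus control, percentage points, colour and number) for the C1q chains and 15 macrophage markers in fibroblast subclusters 0, 3, 4 and 5. C1qb, Tyrobp and Lyz2 are below 0 in all 4 columns, while Csf1r is below 0 in subcluster 0 and above it in the other 3.

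C1ra encodes C1r, the protease that C1q switches on. It was in 70% of control cells and 95.7% of cells of the library labelled depleted in subcluster 3, 25.7 points higher. Elsewhere the libraries differed less, at 97.2% and 100% in subcluster 0, 95% and 90% in subcluster 4, and 73.9% and 71.4% in subcluster 5. Of 10891 genes in subcluster 3, 203 were as high.

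C4b encodes C4, which C1s cuts. Its shares were 70.3% and 78.1% in subcluster 0, 66.7% and 73.9% in subcluster 3, 87.5% and 90% in subcluster 4, and 60.9% and 47.6% in subcluster 5. Only the last passed the size limit, 13.3 points lower, where 13.2% of all genes were as low.

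C3, on which the pathways converge, was found in nearly every cell of subclusters 0, 3 and 4. Its shares were 99.3% and 100% in subcluster 0, 96.7% and 100% in subcluster 3, and 97.5% and 100% in subcluster 4, where a share cannot show a higher level. In subcluster 5 it was in 91.3% of control cells and 57.1% of the others. That difference of -34.2 points was reached by 103 of 10344 genes.

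Cfb encodes factor B, the protease of the alternative pathway convertase, and gave both the largest gain and the largest loss among the genes other than C1q. In subcluster 3 it was found in 53.3% of control cells and 82.6% of the others, 29.3 points higher, and 106 of 10891 genes were as high. In subcluster 4 it was at 37.5% and 60%, where 10.1% of genes were as high, and in subcluster 0 at 76.6% and 84.4%. In subcluster 5 it was at 65.2% and 19%. This difference of -46.2 points was matched or passed downwards by 21 of 10344 genes, Cfb included.

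Serping1 encodes C1 inhibitor. It was in 99.3% and 96.9% of cells in subcluster 0, 100% and 95.7% in subcluster 3, 97.5% and 90% in subcluster 4, and 91.3% and 95.2% in subcluster 5. None of these passed the size limit, and shares this near 100% bound what could be seen.

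The genes can be set out by whether the table of all fibroblasts lists them. The 5 that the table of fibroblast cluster 5 lists (C1ra, C3, C4b, Cfb and Serping1) had 3 higher and 3 lower of 20 values, with medians of 2.8, 7.2, 2.5 and -13.3 points in subclusters 0, 3, 4 and 5. The lower 3 were all in subcluster 5. The other 4 (the C1q chains and Cfp) had 1 higher and 11 lower of 16 values, with medians of -20.6, -10.25, -22.5 and -15.5 points. Over all genes, 14.7% to 31.7% were higher and 12.9% to 22.9% lower by subcluster. Listing depends on a measured size in the same fibroblasts, so the grouping is a description and does not show which cells made the transcripts.

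**Figure D3:**
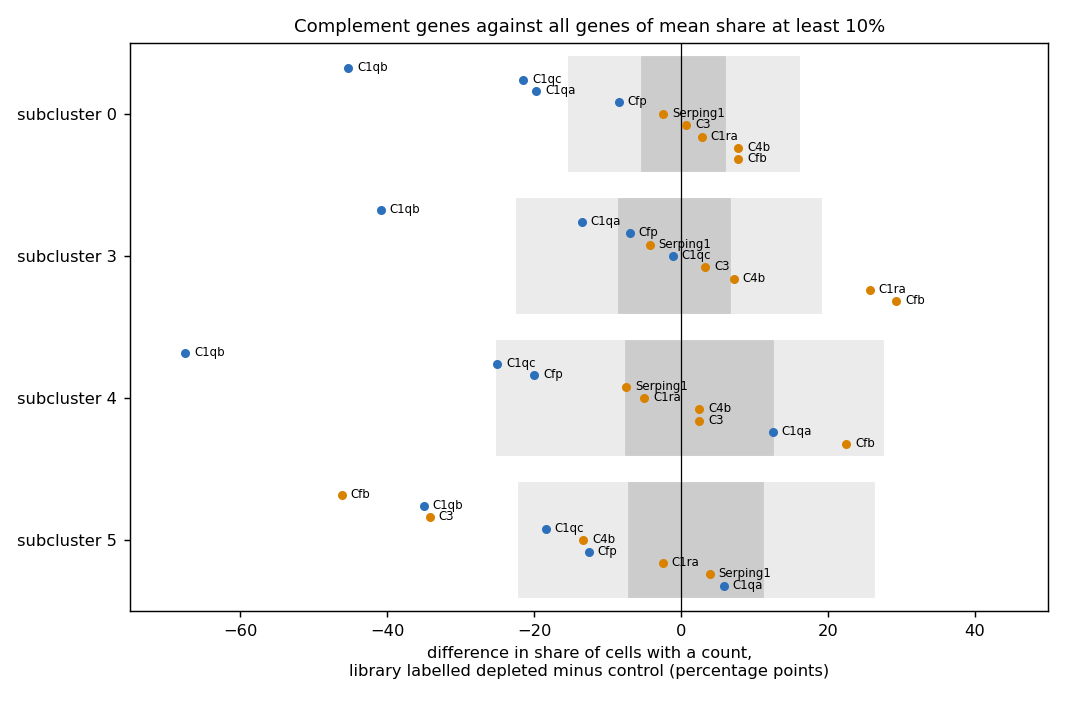
Difference in the share of cells with a count (percentage points, x axis) of each complement gene in each fibroblast subcluster, over bands of all genes of mean share at least 10% (light, 5th to 95th percentile; dark, 25th to 75th). Genes not listed in fibroblast cluster 5 (blue: C1q chains, Cfp) lie mostly left of 0, and the 5 listed ones (orange) lie within the bands except C1ra and Cfb in subcluster 3 and Cfb and C3 in subcluster 5.

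Subcluster 5 also differed in its other markers. Its epicardial and mesothelial markers had summed shares of 204.3 in control and 47.7 in the library labelled depleted, with all 4 markers of mean share of at least 10% lower, and Wt1, an epicardial transcription factor, was at 73.9% and 14.3%. None of the 9 fibroblast markers was lower there and 2 were higher, and Postn, a myofibroblast gene, was at 87% and 100%. Over the 4 subclusters the epicardial list had 4 higher and 10 lower of 25 values and the fibroblast list 7 and 2 of 34. Beside these, 14.7% to 31.7% of all genes were higher and 12.9% to 22.9% lower by subcluster. The part of the epicardial and fibroblast markers in the lower C3, C4b and Cfb was not tested.

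In the clusters of all interstitial cells a gene is listed only if 1 library or both had it in at least 25% of cells and, by the deposited code, at least 0.25 apart in log2 fold change. A missing gene has no value there, and these clusters were normalized separately from the subclusters. Of the 18 cluster tables, 10 listed at least 1 of the 9 genes, with 23 values in all. C3 was listed in 5 clusters, C1qb in 4, C4b and Cfb in 3, C1qa, C1qc and Cfp in 2, and C1ra and Serping1 in 1. Clusters 2, 4, 7, 8, 9, 15, 17 and 18, which hold B cells, T cells, dendritic cells and neutrophils among others, listed none.

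Fibroblast cluster 5 listed 5 genes. Cfb was at 55.7% and 77.5%, 21.8 points higher, and C4b at 50.3% and 62.6%, 12.3 points higher. C1ra was at 88.3% and 92.5%, C3 at 96.3% and 90.9%, and Serping1 at 96.6% and 95.7%. So 2 of 5 were higher and none lower, beside 34.5% of 605 listed genes that were higher and 31.6% that were lower. For Cfb 11.7% of the listed genes were as high. Pdgfra, a fibroblast marker, was at 47.7% and 84% and Upk3b, a mesothelial marker, at 70.8% and 35.8% of the same cells. The neutrophil genes S100a9 and S100a8 were at 49.7% and 9.1% and at 32.6% and 5.9% there. The part of these markers in the higher Cfb and C4b was not tested.

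In macrophages and monocytes the largest difference was that of Cfb. In cluster 0 it was found in 10.8% of control cells and 53.6% of cells of the library labelled depleted, 42.8 points higher, and only 3 of the 923 listed genes were as high, Cfb included. In cluster 3 it was at 24.8% and 53.9%, where 12 of 359 genes were as high. Neutrophil markers were lower in both, S100a8 at 68.3% and 34.3% in cluster 0 and 52.1% and 23.8% in cluster 3, and the fibroblast gene Col3a1 was at 41.5% and 26% in cluster 3. Their part in the difference of Cfb was not tested. C4b was at 53.5% and 63.4% in cluster 0 and at 15.6% and 27.5% in cluster 3. Cfp, well known from myeloid cells, was at 92.2% and 96.2% in cluster 0 and at 62.1% and 73.2% in cluster 13. C3 was at 32.6% and 37.2% in cluster 3 and at 36.5% and 46.8% in cluster 12. The median over all genes listed in cluster 0 was itself 9.3 points and in cluster 3 it was 3.7, and 48.5% and 30.9% of the listed genes were as high as C4b there.

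C1qb went the other way in both macrophage clusters that list it. It was at 52.6% and 26.8% in cluster 13, where 37 of 893 genes were as low. Markers differed in that cluster too, S100a9 at 56.8% and 29.6%, Cx3cr1 at 68.4% and 42.3% and Cd14 at 51.6% and 84.5%, and their part was not tested. In cluster 11 C1qb was at 46.5% and 18.8%, and 48 of 729 genes were as low. Cluster 11 also had C1qa at 31.2% and 22.9%, under the size limit, C1qc at 26.4% and 14.6%, where 42.4% of listed genes were as low, and C3 at 31.2% and 8.3%. Of its 729 listed genes 44.2% were at least 10 points lower and 26.2% higher, with a median of -4.8 points. Among the lower were Csf1r at 79.2% and 50%, Lyz2 at 76.4% and 45.8%, and the neutrophil gene S100a8 at 59.7% and 27.1%. Clusters 0 and 3, which hold macrophages, listed no C1q chain.

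Over the 5 macrophage and monocyte clusters (0, 3, 11, 12 and 13), 5 of 13 listed values were higher and 4 lower, beside 37.0% and 28.4% of 3554 values of all genes. Without cluster 11, 1 was lower, C1qb in cluster 13, and after centring each table on its median there were 3 higher and 3 lower. These shares are near the background and are no result about complement.

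Other clusters listed single values. In neutrophil cluster 1, C3 was at 25.9% and 38.2%. In cluster 6, which the study describes by proliferation markers as possible dividing T cells, C1qb was at 33.3% and 17.2%, where the median of all 703 listed genes was -10.6. T cell cluster 10 had C1qa at 36.4% and 27.4% and C1qc at 27.3% and 16.1%, with the macrophage gene Tyrobp at 72.7% and 25.8% and Lyz2 at 54.5% and 28%. Cluster 14, named natural killer cells, had C1qb at 68.4% and 80.8%, the one higher value of C1qb in any table. That cluster also listed Lyz2 at 83.5% and 96.2%, Apoe at 97.5% and 100% and Ccr2 at 89.9% and 69.2%. Lyz2 and Apoe were as widespread in some clusters of other types, with Lyz2 at 93.4% and 80% in T cell cluster 4 and Apoe at 95.3% and 93.8% in T cell cluster 8.

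**Figure D4:**
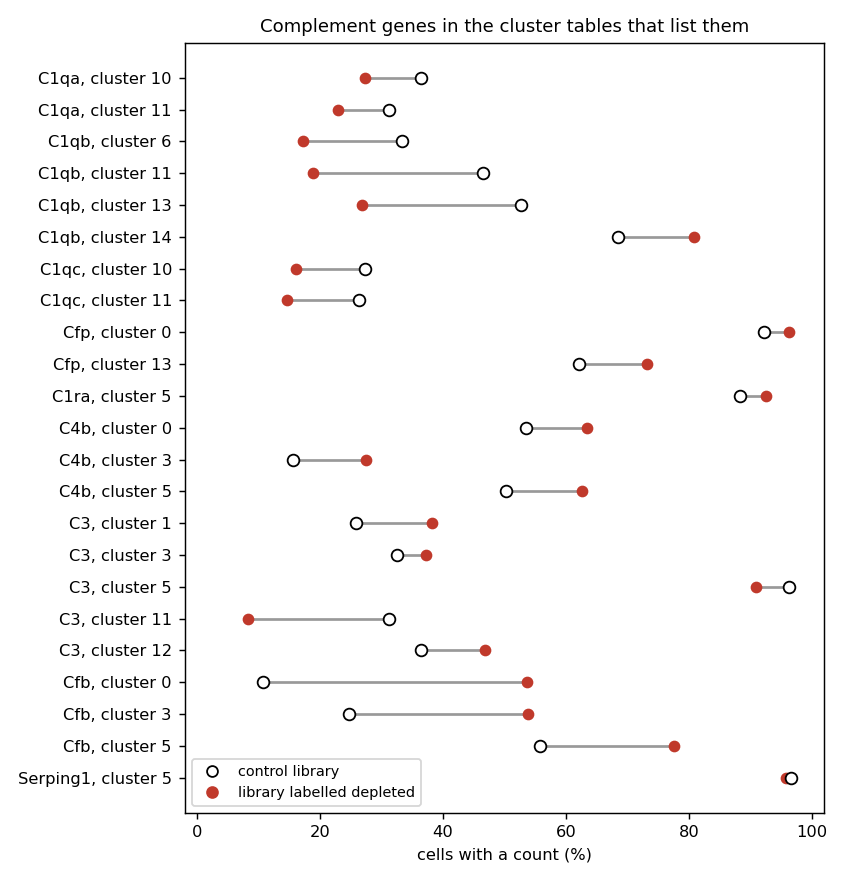
Share of cells with a count (%, x axis) for the 23 values of complement genes in the cluster tables that list them, in the control library (open) and the library labelled depleted (filled). Cfb is higher in all 3 clusters listing it, by 21.8 to 42.8 points, and C1qb is lower in 3 of 4.

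The order of control shares covers only the clusters that list a gene. C1qb ran from 33.3% in cluster 6 through 46.5% in cluster 11 and 52.6% in cluster 13 to 68.4% in cluster 14. Macrophage clusters 0 and 3 list no C1q chain, so their place in this order is unknown. The shares of the fibroblast subclusters are on another scale and have no place in this order. Cfb ran from 10.8% in cluster 0 and 24.8% in cluster 3 to 55.7% in fibroblast cluster 5. In the library labelled depleted, clusters 0 and 3 were level for Cfb, at 53.6% and 53.9%. C3 lay between 25.9% and 36.5% of control cells in clusters 1, 3, 11 and 12 and at 96.3% in fibroblast cluster 5. Without replicates it cannot be said which neighbours in these orders differ.

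The genes nearest to a complement gene over its 8 shares in the subclusters (2 libraries by 4 subclusters) were sought among 10978 genes by Euclidean distance in points. Nearest to C1qb were Tyrobp at 33.2, Prrx2 at 33.8 and Agpat4 at 39.4. Nearest to Cfb were Il33 at 29.1, Man1a at 30.5 and Abi3bp at 36.4, and nearest to C3 were Igfbp4 at 7.9, Igfbp6 at 13.2 and Soat1 at 14.7. C4b had Cdon at 13.9 and Cfp had Hotairm1 at 10.6. C1qa and C1qc had Tm9sf1 and Exosc1, at 14.6 and 14.7, rather than each other or C1qb. C1ra had Hmg20b at 18.7 and Serping1 had Rab11a at 5.5. The 8 points share 2 libraries.

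Of 46 other complement genes on a list by role, 28 were found in the subcluster tables, and 59 of their 112 values had a mean share of at least 10%. Of these, 16 were higher (10 without subcluster 4) and 12 lower, at 3 and 2 in subcluster 0, 4 and 3 in subcluster 3, 6 and 3 in subcluster 4, and 3 and 4 in subcluster 5. Over all genes of that mean share, 14.7% to 31.7% were higher and 12.9% to 22.9% lower by subcluster, so these counts are near the background, and the counts by role that follow are too small to be read apart from it. Terminal components, which form the membrane pore, were nearly absent from the tables, with 1 of 7 found and none at that share. The median difference of the found genes was 0.85, 0.0, 0.0 and -4.1 points in subclusters 0, 3, 4 and 5.

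Among the proteases, C2, the paralogue and neighbour of Cfb, was at 63.3% and 82.6% in subcluster 3 and 30.4% and 14.3% in subcluster 5. Those were the directions of Cfb. In subclusters 0 and 4 C2 was nearly level, at 88.3% and 87.5% and at 77.5% and 80%. There Cfb was 7.8 and 22.5 points higher. C1s1, the gene of C1s, was lower in subcluster 5 at 78.3% and 66.7%, and C1rl was higher in subcluster 3 at 36.7% and 47.8%. Over these genes 2 of 11 values were higher and 2 lower.

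Among the fluid-phase regulators, Cfi, the gene of the C3b-cutting factor I, was at 17.5% and 30% in subcluster 4. Clu, the gene of clusterin, was at 82.6% and 71.4% in subcluster 5.

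Membrane regulators had 7 of 16 values higher and 4 lower. Cd55, the gene of decay-accelerating factor, was at 73.1% and 93.8% in subcluster 0 and at 25% and 70% in subcluster 4, but at 78.3% and 38.1% in subcluster 5. Its signs in subclusters 0, 4 and 5 were those of Cfb, and in subcluster 3, where Cfb was higher, it differed by -6.8 points. Cd59a, which blocks the pore, was at 36.7% and 13% in subcluster 3, 40% and 60% in subcluster 4, and 17.4% and 38.1% in subcluster 5. Its copy Cd59b went the opposite way in subclusters 3 and 4, at 3.3% and 26.1% and at 22.5% and 0%, and the split of reads between these copies is uncertain. Cr1l, a regulator of C3 convertases, was at 67.6% and 81.2% in subcluster 0, 83.3% and 69.6% in subcluster 3, and 70% and 80% in subcluster 4.

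Receptors had 3 of 15 values higher and 4 lower, and are leukocyte genes for the most part. Itgam, the alpha chain of complement receptor 3, was at 29.7% and 15.6% in subcluster 0, 35% and 0% in subcluster 4, and 8.7% and 33.3% in subcluster 5. Itgb2, its beta chain, was at 44.8% and 28.1% in subcluster 0 and 50% and 26.1% in subcluster 3. The anaphylatoxin receptor genes were higher in places, C3ar1 at 16.7% and 30.4% in subcluster 3 and C5ar1 at 12.5% and 40% in subcluster 4. In monocyte and macrophage cluster 13 all of them were higher, C3ar1 at 32.6% and 56.3%, C5ar1 at 47.4% and 78.9%, and C5ar2 at 8.4% and 29.6%, beside 41.7% of the 893 genes listed there that were at least 10 points higher. Cluster 11 had C5ar1 at 27.1% and 2.1%, where 44.2% of listed genes were lower too.

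Lectins that can start the cascade had 2 of 8 values higher and 1 lower. Fcna, the ficolin A gene, was at 10% and 40% in subcluster 4. Colec12, a membrane collectin, was at 100% and 90% in subcluster 4 and 73.9% and 85.7% in subcluster 5, and in macrophage cluster 0 at 38.8% and 19.6%.

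**Figure D5:**
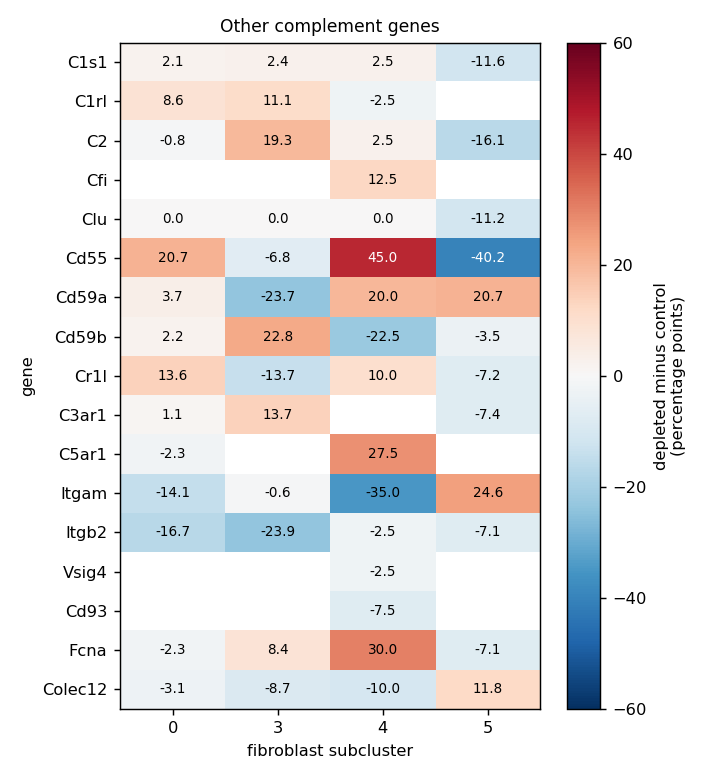
Difference in the share of cells with a count (library labelled depleted minus control, percentage points, colour and number) for the named other complement genes with a mean share of at least 10% in at least 1 fibroblast subcluster. Blank cells are below that share, and Cd55 ranges from 45.0 in subcluster 4 to -40.2 in subcluster 5.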

How the data were processed

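Per the study's methods and the labels, the authors aligned reads with Cell Ranger 6.1.1 to GRCm39 with added reporter sequences, combined the libraries without depth normalization, kept genes found in at least 20 cells and normalized with SCTransform in Seurat. They named no doublet caller, so doublets may remain. The deposited tables give, per gene and cluster, the fraction of cells with a corrected value above 0 in each library, which is used here as a percent. Their fold change and p-value columns are the authors' own comparison over cells and were not used, and levels of cells with a count were thus not compared. Not analysed here were cluster 16 and subclusters 1 and 2 of the fibroblasts. Cluster names follow the study.

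Differences of shares were computed with pandas 2.3.3 in Python 3.11.15. The rule of 10 points called the planted genes in a simulated table without noise, which checks the code and not the rule on these data. Named were the 9 genes wherever listed, the other complement genes past 10 points in a subcluster (1 item is not reported here, but is in the counts of the list), leading genes of marker lists, the targeted genes, and the 3 nearest genes of each complement gene, of which those of 3 genes are printed in full. The genes and lists were chosen with earlier results of these data known. Gene coordinates are from GENCODE on GRCm39, the authors' build with another annotation.

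Alternatives were limits of 5 and 20 points, centring on the median of all genes, a log2 ratio of shares (1 point added to each) of at least 0.5, other filters on low shares, and, chosen after seeing the data, leaving out subcluster 4 or cluster 11.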

Additional observations from a re-analysis of the deposited data

Results flagged for a closer look

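Of the 9 complement genes, 6 were at least 10 points higher in one cell population and at least 10 points lower in another. By the same rule 49.5% of the 9137 genes with a mean share of at least 10% in all 4 subclusters did so, and after centring each table on its median 5 of the 9 did, without Cfp, which was then at 6.5 points in cluster 13. None of these differences between populations was tested, since each rests on 1 library per genotype. C1qa differed by -19.7 points in fibroblast subcluster 0 and by 12.5 in subcluster 4. C1qb differed by -67.5 points in subcluster 4 and by 12.4 in cluster 14, named natural killer cells. C3 differed by -34.2 points in subcluster 5 and by 12.3 in neutrophil cluster 1. C4b differed by -13.3 points in subcluster 5 and by 12.3 in fibroblast cluster 5, from which the subclusters were drawn. Cfb differed by -46.2 points in subcluster 5 and by 42.8 in macrophage cluster 0. Cfp differed by -20.0 points in subcluster 4 and by 11.1 in monocyte and macrophage cluster 13. Values of clusters and subclusters came from separate normalizations.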

How the results depend on the processing

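No paired analysis was possible because there was 1 library per genotype. The 4 higher values of the 9 genes in the fibroblast subclusters became 8 with a limit of 5 points, 2 with the log2 ratio and 2 without subcluster 4, and the 14 lower values became 9 with a limit of 20 points. In macrophage and monocyte clusters the 5 higher values became 2 with 20 points, 3 after centring and 3 with the log2 ratio, and the 4 lower became 1 without cluster 11. For the other complement genes the 16 higher values became 9 with 20 points, 10 with the log2 ratio and 10 without subcluster 4, and the 12 lower became 19 with 5 points and 5 with 20. All other alternatives left these 6 counts within 1.5 times. Of the 59 values of the 9 genes, centring shifted 4 by at least 5 points and reversed none that was past the size limit: in cluster 0, Cfb went from 42.8 to 33.5 points, C4b from 9.9 to 0.6 and Cfp from 4.0 to -5.3, and in cluster 6 C1qb from -16.1 to -5.5. Centring also took C4b in cluster 3 (8.2), Cfp in cluster 13 (6.5) and C1qc in cluster 11 (-7.0) inside the limit and C1qa in cluster 10 (-10.8) past it. The 16 background percents under other filters stayed within 1.5 times. Depth and cell numbers per cluster and library were not in the tables, so small differences of shares cannot be told from counting error.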
